A study of Mus musculus with 110 samples.

Results

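The 78 genes described here are named as mitochondrial ribosomal proteins, and they were chosen by name alone: every gene whose symbol is Mrpl or Mrps followed by a number and at most 1 letter, pseudogenes left out, with a mean level of at least 1 CPM in a tissue, CPM being counts scaled to a common library size. All 78 of the 56884 genes in the deposited tables that met the naming rule passed that level in each of the 4 tissues, 49 under an Mrpl name and 29 under an Mrps name. The 5 pseudogenes with such names held at most 0.0486% of the counts of the 78 genes in any library. mRNA was sequenced from liver, interscapular brown (iBAT), inguinal white (iWAT) and epididymal white (eWAT) adipose tissue of 28 male C57BL/6N mice, 16 weeks old at sacrifice and single-housed, so that the tissues come from the same animals. Ctrl_RT mice received a control diet with 0.86% methionine for 7 days at 22 °C, and MetR_RT mice a diet with 0.12% methionine under the same conditions (percentages as the sample labels give them; the study's text gives that of the control diet slightly lower). Ctrl_CE and MetR_CE mice received the same diets for 7 days and were then kept at 4 °C for an additional 24 h. None of the diets contained cysteine, the sulfur amino acid made from methionine, so the Ctrl groups lacked it too. Each group held 7 mice, and the libraries used per tissue and group numbered 7, except 6 for iBAT Ctrl_RT, iBAT Ctrl_CE, iWAT MetR_CE and eWAT MetR_RT, and 4 for eWAT Ctrl_RT.

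The mitochondrial ribosome translates the few mRNAs that are still encoded by mitochondrial DNA, all of which specify subunits of the respiratory chain and ATP synthase. Its RNA is made in the mitochondrion, whereas all of its proteins are encoded in the nucleus, made in the cytosol and imported. Some of the proteins descend from bacterial ribosomal proteins and bind the rRNA core, and others are particular to mitochondria and lie mostly on the surface. Brown fat is rich in mitochondria and burns fuel for heat in the cold, and inguinal fat can take on brown-like, UCP1-expressing adipocytes, a process called browning. Names can mislead: Mrps30 and Mrps18a encode proteins of the large subunit, and Mrps36 encodes KGD4, an adaptor of the 2-oxoglutarate dehydrogenase complex of the citric acid cycle. By structure, the 78 genes therefore comprised 51 of the large subunit, 26 of the small subunit and Mrps36.

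Promoter sequence is shown first, because the genes moved together in inguinal fat, and the windows let the reader see what letters they do and do not share. RefSeq start sites on GRCm38.p6 (mm10) were available for 69 of the 78 genes, and the 250 bases upstream of each start were searched on both strands. CCGGAAG, the core recognised by ETS factors such as GABP (also called NRF2), occurred in 18 of the 69 genes (26.1%), against 7.83% of 27025 genes. GCGCATGCGC, the palindrome of NRF1, occurred in 3 genes (4.35%, against 0.877%), and AAGATGGC, read by YY1, in 4 genes (5.80%, against 1.83%). The E-box CACGTG, which Myc and other factors read, occurred in 5 genes (7.25%, against 6.86%). TCAAGGTCA, an estrogen-related receptor site, and TGATGNAA, an ATF4-type element, occurred in 0 of the 69, against 0.422% and 3.91% of all genes. Promoters overlap for neighbouring genes, and the promoters of the 69 genes were richer in G and C (median 58.4%, against 52.4% for 32851 promoters), so the shares are descriptive. The windows below hold the 100 bases before the start of 5 genes named in the results, chosen because they hold an example of the E-box, ETS or NRF1 letters; the 250 bases before Mrpl12, Mrps18b, Mrps36, Mrpl47, Mrps23, Mrpl11 and Mrps21, which are followed in detail below, held none of the searched letters and are not shown. The windows are written 5′ to 3′ on the gene's strand, with the searched letters in capitals.
Mrpl20 (chr4:155802778-155802877, plus strand, E-box): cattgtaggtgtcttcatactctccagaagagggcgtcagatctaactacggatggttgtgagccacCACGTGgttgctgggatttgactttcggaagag
Mrps22 (chr9:98601680-98601779, minus strand, ETS): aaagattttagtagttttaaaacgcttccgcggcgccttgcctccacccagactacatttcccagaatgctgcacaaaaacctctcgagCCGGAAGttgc
Mrpl27 (chr11:94653691-94653790, plus strand, ETS): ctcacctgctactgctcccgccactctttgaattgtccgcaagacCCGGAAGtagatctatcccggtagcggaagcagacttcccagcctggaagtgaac
Mrpl9 (chr3:94443236-94443335, plus strand, NRF1): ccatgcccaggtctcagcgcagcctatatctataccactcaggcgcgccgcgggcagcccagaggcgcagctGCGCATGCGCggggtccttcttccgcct
Mrpl52 (chr14:54426809-54426908, plus strand, ETS in reverse orientation): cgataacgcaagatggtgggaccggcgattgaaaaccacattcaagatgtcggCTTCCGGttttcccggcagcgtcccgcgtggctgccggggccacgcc
Mrpl46 and Mrps11, encoding a large and a small subunit protein, are transcribed away from each other, and the 41 bases between their starts (chr7:78783090-78783130, shown on the Mrps11 strand) held none of the searched letters.
Mrpl46 to Mrps11: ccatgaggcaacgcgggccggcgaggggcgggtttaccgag

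Library depth ranged from 6987895 to 33444374 counts in liver, 12672686 to 31232349 in iBAT, 16607493 to 33141066 in iWAT and 22021114 to 33372110 in eWAT, and the 78 genes together took between 0.198% and 0.483% of the counts of a library. Levels are given as CPM normalized by TMM within each tissue. Fold changes and adjusted p-values are from edgeR's quasi-likelihood test of all 4 groups of a tissue, with Benjamini-Hochberg adjustment over all genes of that tissue. A gene passed when its adjusted p was under 0.05, and a DEG had in addition changed by at least 1.5-fold. Counts at an unadjusted p under 0.05 cover the 78 genes alone, and the share of all genes at that level was not computed. The 5 iWAT libraries with the most skeletal muscle mRNA (over 2000 CPM for 6 markers, up to 18935 CPM), the 2 eWAT libraries with over 100 CPM of epididymal epithelium markers and the 1 liver library under 10000000 counts were kept, and counts without them are given where they differ. All comparisons with Ctrl_RT in a tissue share the same control libraries.

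The summed mRNA level of the 78 genes moved differently in each tissue. In iWAT it was 2480 ± 135 CPM (SD, n = 7) in the Ctrl_RT group, 3465 ± 402 (n = 7) in Ctrl_CE, 3349 ± 430 (n = 7) in MetR_RT and 3472 ± 375 (n = 6) in MetR_CE. In iBAT it was 3966 ± 95.3 CPM in Ctrl_RT (n = 6), 4427 ± 159 in Ctrl_CE (n = 6), 3958 ± 42.5 in MetR_RT (n = 7) and 4202 ± 151 in MetR_CE (n = 7). In liver it was 2683 ± 143 CPM in Ctrl_RT and 2661 ± 84.2 in MetR_RT, against 2280 ± 133 in Ctrl_CE and 2379 ± 53 in MetR_CE (n = 7 each). In eWAT it was 2557 ± 158 CPM in Ctrl_RT (n = 4), 2898 ± 332 in Ctrl_CE (n = 7), 2682 ± 304 in MetR_RT (n = 6) and 2422 ± 145 in MetR_CE (n = 7). In iWAT the sum was therefore higher after cold, after methionine restriction and after both. It was higher after cold in iBAT and lower after cold in liver. In eWAT the mean was highest in Ctrl_CE and lowest in MetR_CE, with only 4 libraries in Ctrl_RT.

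**Figure D1:**
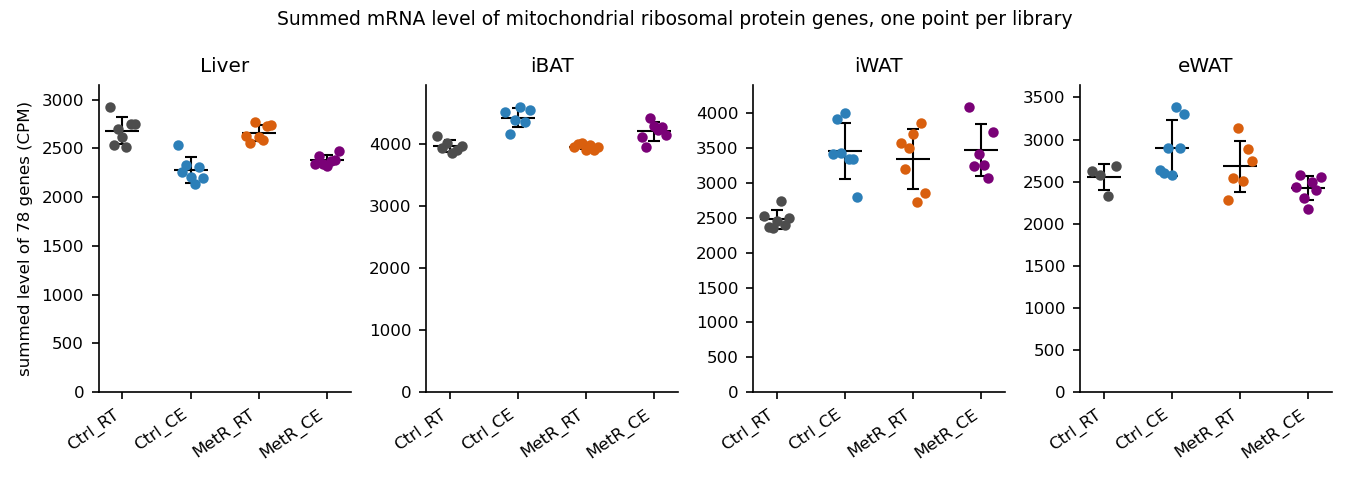
Summed level of the 78 mitochondrial ribosomal protein genes (y axis, CPM, from 0) in each library (points), with the group mean and SD (bars), for the 4 tissues and 4 groups. All iWAT libraries of the 3 treated groups lie at 2735 CPM or above, while 6 of the 7 Ctrl_RT libraries lie below that level and the highest reaches 2748; in liver, the Ctrl_CE group is lower than Ctrl_RT.

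In iWAT, cold raised nearly the whole set. In Ctrl_CE against Ctrl_RT, 69 of the 78 genes passed as higher and 0 as lower, with a median log2 fold change of 0.44, and 18 were DEGs. Among all 26428 genes tested, 14.6% passed as higher and 16.2% as lower, with a median of −0.11, and 5.99% were DEGs with higher levels. The rise was shared by both subunits: 44 of 51 large subunit genes (median 0.44) and 24 of 26 small subunit genes (median 0.43). It was also shared by the proteins with bacterial homologues (26 of 30 in the large and 14 of 16 in the small subunit) and by those particular to mitochondria (18 of 21 and 10 of 10).

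Methionine restriction at 22 °C also raised most of the genes in iWAT, against the same Ctrl_RT libraries; MetR_RT and Ctrl_CE were not tested against each other. In MetR_RT against Ctrl_RT, 71 of the 78 genes passed as higher and 0 as lower, with a median log2 fold change of 0.42, and 11 were DEGs; of all genes tested, 11% passed as higher and 4.25% were DEGs with higher levels. The count was 45 of 51 for the large and 25 of 26 for the small subunit. With both treatments, in MetR_CE against Ctrl_RT, 69 genes passed as higher and 0 as lower, with a median of 0.47 and 19 DEGs, while 17.2% of all genes passed as higher and 8.05% were DEGs with higher levels.

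Mrpl20 encodes a large subunit protein that binds the rRNA during assembly, and in iWAT it had the smallest adjusted p of the 78 in all 3 comparisons with Ctrl_RT. Its level in the 7 Ctrl_RT libraries ranged from 33.8 to 47.8 CPM, with a median of 37.9. In Ctrl_CE it ranged from 59.5 to 78.1 CPM (median 67.9), in MetR_RT from 49.9 to 71.8 (median 60.1) and in MetR_CE from 64.9 to 91.4 (median 72.6). Every treated library thus lay above every Ctrl_RT library, while the 3 treated groups overlapped. The log2 fold changes of Mrpl20 against Ctrl_RT were 0.83 ± 0.09 (SE; adjusted p = 3.78e-07) in Ctrl_CE, 0.66 ± 0.09 (2.91e-05) in MetR_RT and 0.95 ± 0.09 (5.17e-08) in MetR_CE.

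Mrps22, a mitochondria-specific protein of the small subunit, ranged from 13.3 to 19.95 CPM in Ctrl_RT (median 14.6), from 27.1 to 32.1 in Ctrl_CE (median 28), from 19.95 to 27.4 in MetR_RT (median 24.5) and from 22.8 to 30.9 in MetR_CE (median 26.2). The Ctrl_CE and MetR_CE libraries lay above all Ctrl_RT libraries, and the highest Ctrl_RT and lowest MetR_RT library of Mrps22 met at 19.95 CPM. Its log2 fold changes were 0.85 ± 0.10 (adjusted p = 5.99e-07) in Ctrl_CE, 0.59 ± 0.10 (0.000117) in MetR_RT and 0.73 ± 0.10 (1.82e-06) in MetR_CE.

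Mrps18b, one of 3 mammalian genes related to bacterial S18 and the one in the small subunit's body, ranged from 13.2 to 17.4 CPM in Ctrl_RT (median 15.8), from 21.5 to 34.7 in Ctrl_CE (median 29.7), from 17.4 to 29 in MetR_RT (median 23.1) and from 27 to 34.2 in MetR_CE (median 29.9). Only the lowest MetR_RT library overlapped Ctrl_RT. The log2 fold change of Mrps18b was 0.88 ± 0.11 (adjusted p = 2.37e-06) in Ctrl_CE, 0.53 ± 0.11 (0.000940) in MetR_RT and 0.95 ± 0.11 (5.27e-07) in MetR_CE. Of its relatives, Mrps18c rose by 0.34 ± 0.08 on the log2 scale in Ctrl_CE and 0.31 ± 0.08 in MetR_RT, and Mrps18a, in the large subunit, rose by 0.30 ± 0.10 in Ctrl_CE (adjusted p = 0.029), with 0.21 ± 0.10 in MetR_RT, which did not pass (adjusted p = 0.16).

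Mrpl12 encodes the protein of the flexible stalk that recruits translation factors, and it has also been described as a partner of the mitochondrial RNA polymerase. It ranged from 74.9 to 108 CPM in Ctrl_RT (median 85.1), from 123 to 194 in Ctrl_CE (median 157), from 96.6 to 171 in MetR_RT (median 137) and from 117 to 179 in MetR_CE (median 138). The Mrpl12 levels of both cold groups lay above all Ctrl_RT libraries, and MetR_RT overlapped the highest of them. Its log2 fold changes were 0.92 ± 0.12 (adjusted p = 4.63e-06) in Ctrl_CE, 0.66 ± 0.12 (0.000289) in MetR_RT and 0.73 ± 0.13 (3.61e-05) in MetR_CE.

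Other genes with small adjusted p in iWAT were Mrpl41 in Ctrl_CE (0.54 ± 0.07 on the log2 scale, adjusted p = 3.08e-06), Mrps23 in MetR_CE (0.93 ± 0.12, 1.09e-06), and in MetR_RT Mrps28 (0.56 ± 0.08, 4.19e-05), Mrpl2 (0.56 ± 0.08, 5.03e-05) and Mrpl27 (0.43 ± 0.06, 5.22e-05). Mrpl2 and Mrpl27 encode proteins next to the peptidyl transferase centre, where peptide bonds are made. Mrps30 rose by 0.37 ± 0.07 in Ctrl_CE (adjusted p = 0.00038) and by 0.39 ± 0.07 in MetR_RT (0.00037). Mrpl58, a peptidyl-tRNA hydrolase built into the large subunit, rose by 0.44 ± 0.09 in Ctrl_CE (0.00042) and by 0.43 ± 0.09 in MetR_RT (0.00070). Mrps12, at the decoding centre, rose less, by 0.19 ± 0.07 in Ctrl_CE (0.044) and by 0.26 ± 0.07 in MetR_RT (0.0082), and did not pass in MetR_CE. Mrps6 rose by 0.41 ± 0.12 in Ctrl_CE (0.011) and by 0.69 ± 0.12 in MetR_RT (0.00019); its locus overlaps that of Slc5a3, so the division of reads between them is uncertain. The divergent pair rose together in Ctrl_CE, Mrpl46 by 0.67 ± 0.11 (3.45e-05) and Mrps11 by 0.56 ± 0.09 (6.07e-05); the pair was chosen for its position.

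A few genes stood outside the rise. In Ctrl_CE the 9 genes that did not pass were Mrps9, Mrpl24, Mrpl33, Mrpl23, Mrpl54, Mrps24, Mrpl38, Mrpl36 and Mrpl52, and Mrpl24, Mrpl33, Mrpl23, Mrpl36 and Mrpl52 passed in none of the 3 comparisons with Ctrl_RT. Mrpl52, a mitochondria-specific large subunit protein, ranged from 21.5 to 25.2 CPM in Ctrl_RT (median 23.3), from 19.8 to 23 in Ctrl_CE (median 21.8), from 19.8 to 26.8 in MetR_RT (median 21.6) and from 17.8 to 26.2 in MetR_CE (median 22.3). All 4 groups overlapped, and its log2 fold changes were −0.10 ± 0.07 (adjusted p = 0.289), −0.06 ± 0.07 (0.635) and −0.08 ± 0.07 (0.452). Mrpl36, a protein added late in large subunit assembly, had log2 fold changes of 0.12 ± 0.10 in Ctrl_CE (adjusted p = 0.395) and 0.12 ± 0.10 in MetR_RT (0.46).

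Mrps36 had the largest log2 fold change of the 78 in MetR_RT and MetR_CE, although its product is not a ribosomal protein. It ranged from 5.18 to 9.38 CPM in Ctrl_RT (median 8.64), from 8.85 to 18.1 in Ctrl_CE (median 14.7), from 9.96 to 23.9 in MetR_RT (median 13.9) and from 14.4 to 25.8 in MetR_CE (median 17.6). The MetR_RT libraries of Mrps36 fell into 3 high ones (replicates 1, 4 and 6) and 4 lower ones, and those 3 also held the most brown adipocyte marker mRNA (4725 to 4898 CPM for 6 markers, against 378 to 1705 CPM in the other 4). The sum of all 78 genes was also highest in those 3 MetR_RT libraries, at 3581 to 3860 CPM against 2735 to 3500 CPM in the other 4. The 3500 CPM belonged to replicate 3, with 1705 CPM of brown adipocyte markers. Skeletal muscle markers reached 18935 CPM in replicate 6, one of the high libraries, and 5047 CPM in replicate 5, one of the lower. The part of these cell types in the split was not tested. The log2 fold changes of Mrps36 were 0.82 ± 0.20 (adjusted p = 0.00283), 1.07 ± 0.20 (0.000392) and 1.20 ± 0.21 (4.98e-05).

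**Figure D2:**
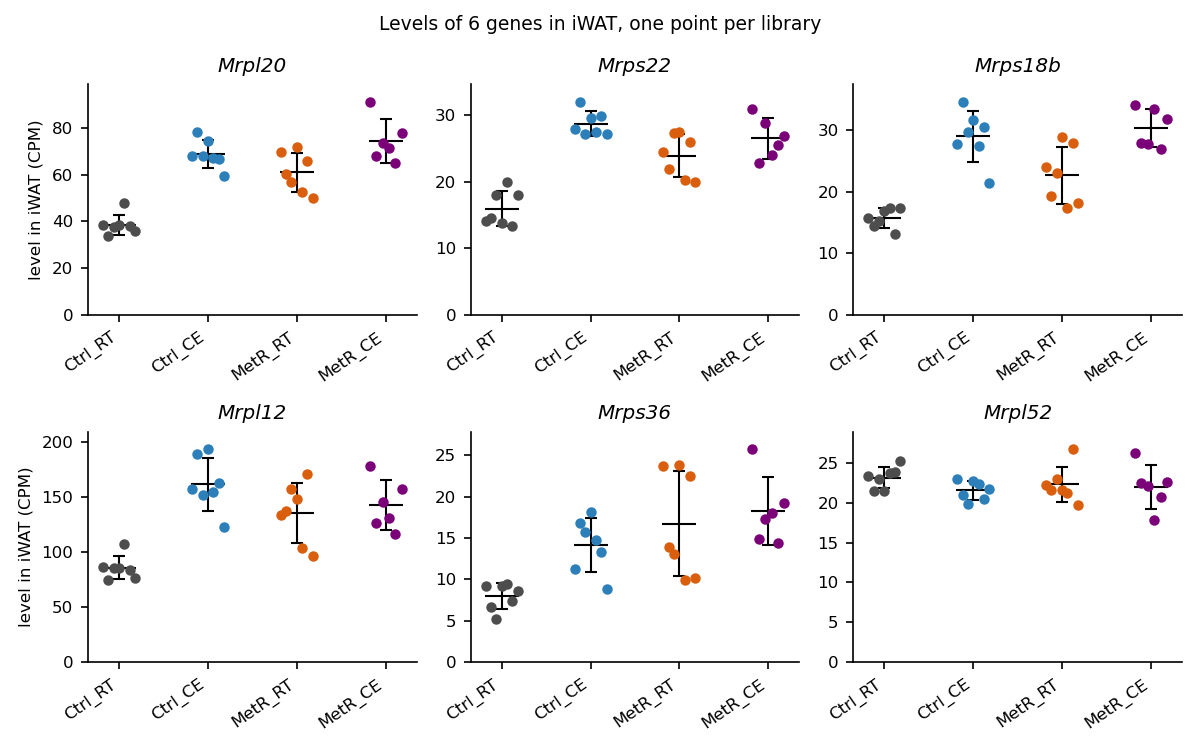
Levels in iWAT (y axes, CPM, from 0) of 6 genes in each library (points) of the 4 groups, with mean and SD (bars). Mrpl20, Mrps22, Mrps18b, Mrpl12 and Mrps36 are higher in the 3 treated groups than in Ctrl_RT, and Mrpl52 overlaps in all groups.

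Many genes of the rest of the mitochondrial translation system also passed as higher in iWAT. Of all genes, 14.6% passed as higher in Ctrl_CE, 11% in MetR_RT and 17.2% in MetR_CE. Translation factors passed as higher in 10, 9 and 10 of 12 genes in Ctrl_CE, MetR_RT and MetR_CE; Tufm, the elongation factor that delivers aminoacyl-tRNA, rose by 0.51 ± 0.14 on the log2 scale in Ctrl_CE (adjusted p = 0.0049) and by 0.64 ± 0.14 in MetR_RT (0.0010), and Gfm1, the translocation factor, by 1.06 ± 0.16 and 0.95 ± 0.16. Mitochondrial aminoacyl-tRNA synthetases passed as higher in 12, 14 and 12 of 17 genes, among them Sars2 (0.78 ± 0.11 in Ctrl_CE) and Iars2 (0.55 ± 0.08). Of 25 ribosome assembly factors 10, 11 and 14 passed as higher, with 1 lower in Ctrl_CE; Mpv17l2 rose by 0.81 ± 0.09 in Ctrl_CE and Eral1 by 0.45 ± 0.08 in MetR_RT. Of the ribosomal proteins with other names, 4 of 5 passed as higher in each comparison, led by Ptcd3 (0.77 ± 0.13 in Ctrl_CE). The subunits that work with the ribosome's products moved further: 39, 40 and 40 of 40 nuclear respiratory chain genes passed as higher, with medians of 0.80, 0.84 and 0.94, and 8, 8 and 10 of 13 mitochondrially encoded mRNAs did so. Of 86 cytosolic ribosomal protein genes, a list added after the data had been seen, 5 passed as higher and 18 as lower in Ctrl_CE, where 16.2% of all genes passed as lower, 0 as higher and 39 as lower in MetR_RT (11.5% of all genes lower), and 2 as higher and 50 as lower in MetR_CE (19.9%).

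Among regulators of mitochondrial gene expression in iWAT, Ppargc1a, the coactivator PGC-1α, rose by 2.71 ± 0.32 on the log2 scale in Ctrl_CE (adjusted p = 1.1e-06) and by 1.21 ± 0.31 in MetR_RT (0.0051). Esrra, the estrogen-related receptor α, rose by 1.27 ± 0.17 and 0.93 ± 0.17. Tfam, which packages mitochondrial DNA and takes part in its transcription, rose by 0.54 ± 0.09 and 0.47 ± 0.09, and Gabpa by 0.39 ± 0.12 and 0.34 ± 0.12. Myc fell by 0.64 and by 0.71 on the log2 scale (adjusted p = 0.023 and 0.016). Nrf1 and Atf4 did not pass, with −0.12 ± 0.07 and 0.27 ± 0.11 in Ctrl_CE. The 18 genes with the ETS letters upstream had a median log2 fold change of 0.44 in Ctrl_CE of iWAT, as had the 51 without. In Ctrl_CE of iBAT the medians were 0.16 with the letters (9 passed as higher and 0 as lower) and 0.08 without (21 and 6). The part of these letters or of the regulators in the changes was not tested.

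Markers of other cell types moved with the treatments in iWAT. The summed level of 6 brown adipocyte markers was 359 ± 266.7 CPM in Ctrl_RT, and reached 3546 ± 1860 in Ctrl_CE, 2746 ± 1955 in MetR_RT and 5103 ± 1543 in MetR_CE, with 5 of 6 markers higher in each comparison. That of 6 macrophage markers was 1744 ± 328 CPM in Ctrl_RT, against 796 ± 458 in Ctrl_CE, 627 ± 345 in MetR_RT and 297.4 ± 111 in MetR_CE, with 6 of 6 lower in each. The treated libraries with the least brown adipocyte marker mRNA, replicate 5 of MetR_RT (378 CPM) and replicate 7 of Ctrl_CE (786 CPM), held 2735 and 2801 CPM of the 78 genes together, near the highest Ctrl_RT library (2748 CPM). That Ctrl_RT library, replicate 5, held 630 CPM of the markers, and replicate 7 of Ctrl_RT held 763 CPM with 2502 CPM of the 78 genes. Replicate 5 of MetR_RT was also rich in skeletal muscle mRNA (5047 CPM). The part of these cell types in the rise of the 78 genes was not tested, and in bulk tissue fewer cells of a type and less RNA per cell cannot be told apart. Skeletal muscle markers ranged from 2.29 to 18935 CPM among iWAT libraries with no marker passing in Ctrl_CE.

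Few of the genes passed between both treatments together and either alone in iWAT. In MetR_CE against MetR_RT, 1 of the 78 genes passed, Mrps18b, higher by 0.42 ± 0.11 on the log2 scale (adjusted p = 0.0306), while 3.16% of all genes passed as higher and 2.25% as lower; without the 5 muscle-rich libraries 0 passed. In MetR_CE against Ctrl_CE, 0 genes passed by edgeR, with 4 at an unadjusted p under 0.05 and 0 by DESeq2, while 3.37% of all genes passed. The interaction was the log2 change with cold on the restricted diet minus that on the control diet. It was below zero and passed for 22 of the 78 genes and above zero for 0, with a median of −0.39. Under the alternatives the count was 8 without the 5 muscle-rich libraries (0.986% of all genes passed), 45 with filterByExpr (8.57%) and 54 by DESeq2 (13.1%). In the main fit 2.09% of all genes passed below zero and 2.95% in either direction. The smallest adjusted p were those of Mrps22 (−0.70 ± 0.14, adjusted p = 0.0109), Mrps28 (−0.57 ± 0.11, 0.011), Mrpl27 (−0.44 ± 0.09, 0.013) and Mrpl12 (−0.84 ± 0.17, 0.0134). At an unadjusted p under 0.05 the interaction was below zero for 69 of the 78 genes and above it for 0, without a share of all genes to set beside it. For the 22 genes that passed, the change with both treatments was thus smaller than the sum of the separate changes.

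In iBAT, cold changed some of the genes by small amounts, more often upward than downward. In Ctrl_CE against Ctrl_RT, 36 of the 78 passed as higher and 7 as lower, with a median log2 fold change of 0.12. Of all 23915 genes 33.2% passed, 15.3% as higher and 17.9% as lower. Only Mrpl20 and Mrpl47 were DEGs, both higher, against 14.7% of all genes. Of the small subunit proteins particular to mitochondria, 7 of 10 passed as higher (median 0.29), and of those with bacterial homologues 5 of 16 did and 2 passed as lower (median 0.06). In MetR_CE against Ctrl_RT, 27 passed as higher and 11 as lower (33.4% of all genes passed, 15% as higher and 18.5% as lower). In MetR_CE against MetR_RT 25 passed as higher and 8 as lower (25.5% of all genes, 13.1% as higher and 12.4% as lower). The gene with the smallest adjusted p after Mrpl20, Mrpl47 and Mrps23, described below, was Mrps2 in the first (0.42 ± 0.05, adjusted p = 6.38e-08) and Mrpl43 in the second (0.34 ± 0.05, 3.74e-06). The lower ones were led by Mrpl9, followed by Mrpl24 (−0.19 ± 0.04, 0.000239), Mrpl22 (−0.29 ± 0.07, 0.00185) and Mrpl49 (−0.18 ± 0.04, 0.00231), in MetR_CE against Ctrl_RT, and were Mrpl49 (−0.18 ± 0.04, 0.00189), Mrpl9, Mrpl50 (−0.18 ± 0.05, 0.00356) and Mrps17 (−0.17 ± 0.04, 0.00446), in that order, in MetR_CE against MetR_RT.

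Mrpl20 in iBAT ranged from 48.1 to 54.7 CPM in Ctrl_RT (median 53.3), from 82.2 to 101 in Ctrl_CE (median 91.7), from 56.4 to 62.3 in MetR_RT (median 61.0) and from 72.7 to 93.5 in MetR_CE (median 84.8). The cold groups lay above both groups at 22 °C, and MetR_RT lay above Ctrl_RT without overlap. Its log2 fold changes against Ctrl_RT were 0.81 ± 0.06 (adjusted p = 4.47e-12) in Ctrl_CE, 0.21 ± 0.05 (0.0184) in MetR_RT and 0.68 ± 0.05 (9.21e-11) in MetR_CE.

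Mrpl47, a protein near the exit of the peptide tunnel, ranged in iBAT from 34.9 to 45.7 CPM in Ctrl_RT (median 38.7), from 55.3 to 65 in Ctrl_CE (median 63.4), from 38.2 to 46.4 in MetR_RT (median 41.1) and from 53 to 62.3 in MetR_CE (median 59.0). The cold groups again did not overlap those at 22 °C, and MetR_RT overlapped Ctrl_RT. Mrpl47 rose by 0.67 ± 0.06 on the log2 scale in Ctrl_CE (adjusted p = 2.74e-10) and by 0.50 ± 0.05 in MetR_CE against MetR_RT (3.77e-08).

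Mrps23 in iBAT ranged from 76 to 83.1 CPM in Ctrl_RT (median 78.5), from 99.1 to 121 in Ctrl_CE (median 114), from 80.8 to 90.4 in MetR_RT (median 85.1) and from 97.4 to 117 in MetR_CE (median 109), so that all cold libraries lay above all others. It rose by 0.52 ± 0.05 on the log2 scale in Ctrl_CE (adjusted p = 2.97e-09), and Mrps18b rose by 0.49 ± 0.05 (6.58e-09). The pair Mrpl46 and Mrps11 rose by 0.41 ± 0.05 and 0.25 ± 0.06.

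Mrpl9, a bacterial-type large subunit protein, went the other way in iBAT: its level ranged from 98.6 to 115 CPM in Ctrl_RT (median 104), from 83.2 to 95.8 in Ctrl_CE (median 93.5), from 91.7 to 100 in MetR_RT (median 96.1) and from 78.8 to 89.6 in MetR_CE (median 83.7). Both cold groups lay below Ctrl_RT. Mrpl9 changed by −0.20 ± 0.05 on the log2 scale in Ctrl_CE (adjusted p = 0.00112) and by −0.31 ± 0.05 in MetR_CE (3.4e-06). Also lower in Ctrl_CE were Mrps17 (−0.20 ± 0.05, 0.00127), Mrpl24 (−0.17 ± 0.04, 0.00137) and Mrps9 (−0.23 ± 0.06, 0.00297).

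Methionine restriction at 22 °C changed 8 of the 78 genes in iBAT. In MetR_RT against Ctrl_RT, 5 passed as higher and 3 as lower, among 6.8% of all genes. The higher ones included Mrps6 (0.35 ± 0.08 on the log2 scale, adjusted p = 0.00466), Mrpl40 (0.23 ± 0.06, 0.0103) and Mrps2 (0.17 ± 0.05, 0.0309), and the lower ones were Mrpl34 (−0.17 ± 0.05, 0.0278), Mrps34 (−0.15 ± 0.04, 0.0282) and Mrpl24 (−0.13 ± 0.04, 0.0285). In MetR_CE against Ctrl_CE, 0 passed as higher and 8 as lower, among 4.78% of all genes, led by Mrps16 (−0.24 ± 0.05, 0.00432), Mrps5 (−0.22 ± 0.05, 0.0128), Mrps28 (−0.20 ± 0.05, 0.0161) and Mrps18b (−0.19 ± 0.05, 0.0174). The interaction passed for 2 genes, Mrpl20 (−0.34 ± 0.08, adjusted p = 0.0250) and Mrps27, among 0.903% of all genes. The treatment tags of 3 iBAT libraries name another group than their titles; with groups taken from the tags, 2 genes passed in MetR_RT against Ctrl_RT, 12 in MetR_CE against MetR_RT, 0 in MetR_CE against Ctrl_CE and 0 in the interaction.

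In iBAT the mRNAs that the ribosome translates did not pass as higher in Ctrl_CE. Of the 13 mitochondrially encoded mRNAs, 0 passed as higher and 6 as lower in Ctrl_CE against Ctrl_RT, with mt-Nd4 at −0.63 ± 0.08 on the log2 scale and mt-Co1 at −0.66 ± 0.09. Nuclear respiratory chain subunits passed as higher in 11 and as lower in 14 of 40. Of all genes, 15.3% passed as higher and 17.9% as lower. The libraries were made from poly(A) RNA, and the effect of that selection on mitochondrially encoded mRNAs was not tested. Ppargc1a rose by 2.44 ± 0.21, Esrra by 0.77 ± 0.06 and Tfam by 0.47 ± 0.06. The summed brown adipocyte markers were 9490 ± 993.5 CPM in Ctrl_RT and 16441 ± 1120 CPM in Ctrl_CE.

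**Figure D3:**
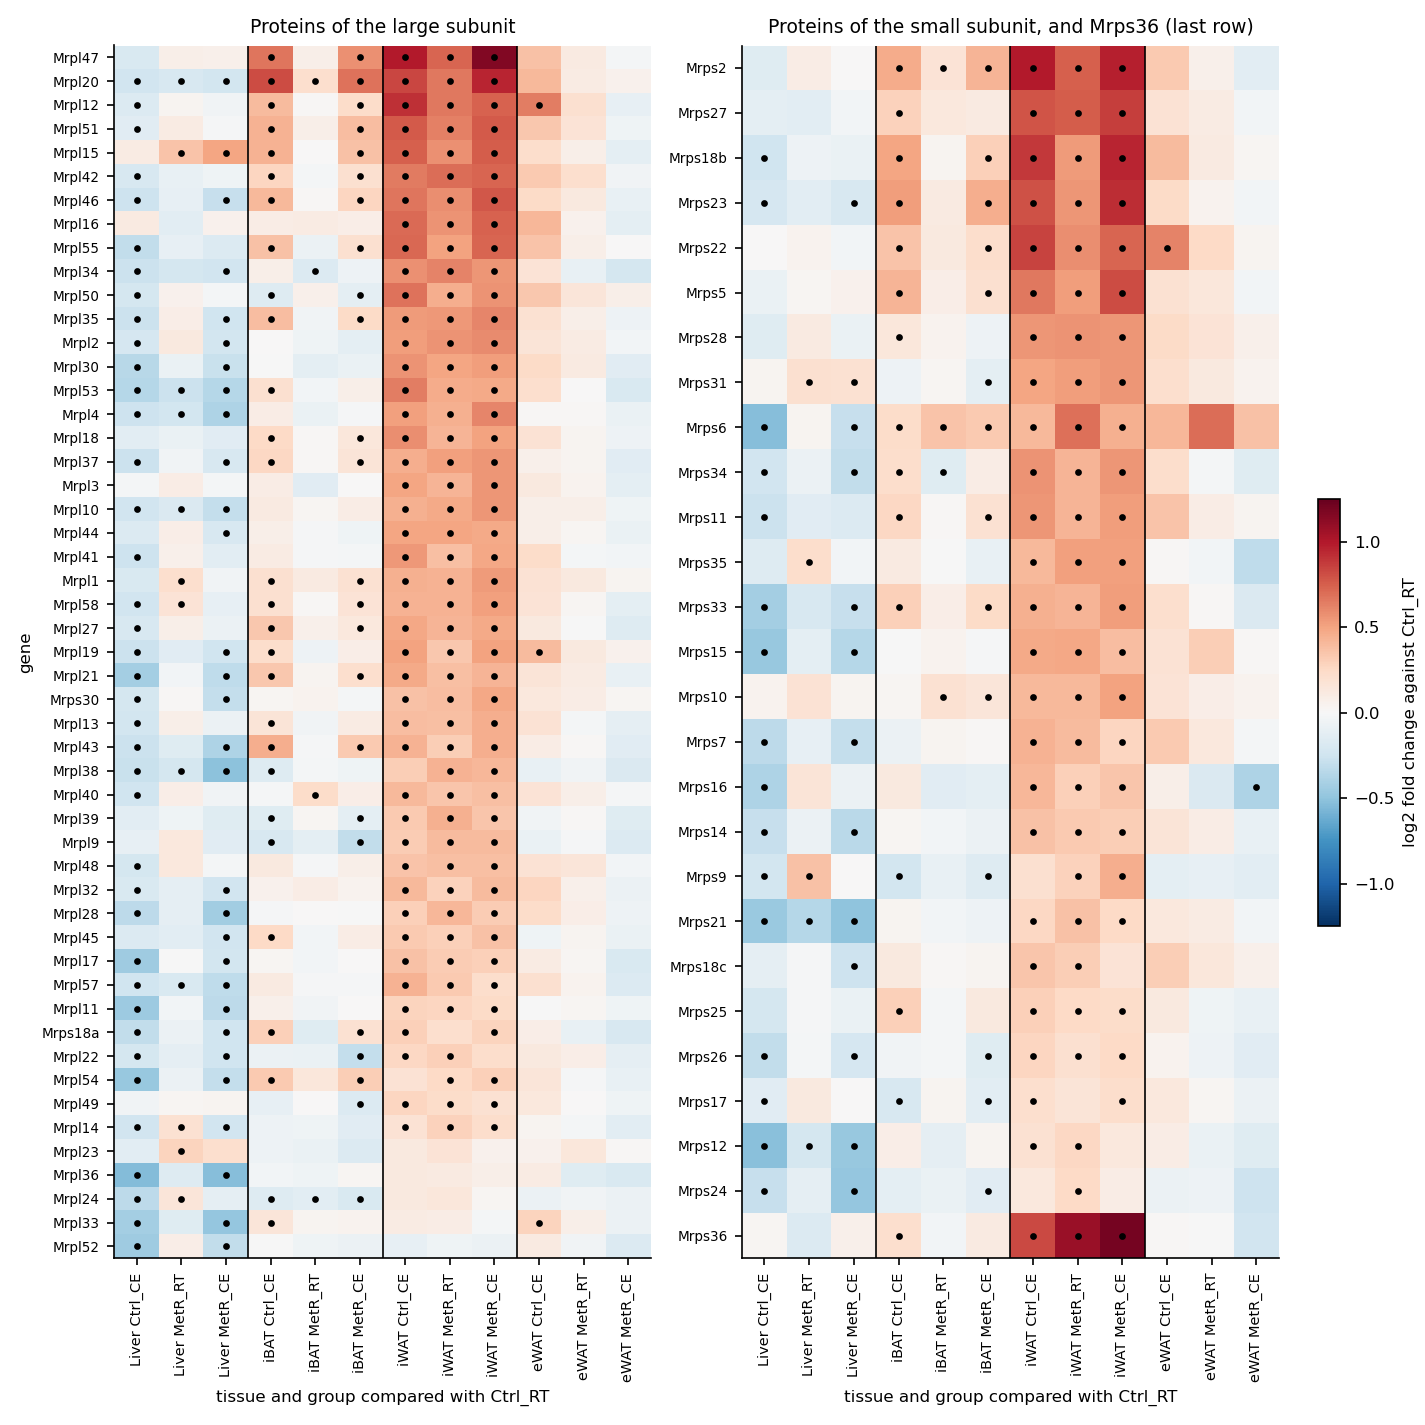
Log2 fold change against Ctrl_RT (colour, red higher and blue lower) of the 78 genes (rows, large subunit left, small subunit and Mrps36 right, ordered by their mean in iWAT) in 4 tissues and 3 treated groups (columns); dots mark an adjusted p under 0.05. The iWAT columns are red in nearly every row (69, 71 and 69 of 78 past the threshold), the liver Ctrl_CE column is blue (55 of 78) and eWAT is pale. iBAT is mixed, with 36 genes higher and 7 lower past the threshold in Ctrl_CE.

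In liver, cold lowered many of the genes. In Ctrl_CE against Ctrl_RT, 0 of the 78 passed as higher and 55 as lower, with a median log2 fold change of −0.24 and 0 DEGs (11.9% of all genes were DEGs), while 14.7% of all 22143 genes passed as higher and 14.2% as lower. The count was 39 of 51 for the large subunit and 16 of 26 for the small subunit. In MetR_CE against Ctrl_RT 2 passed as higher and 41 as lower (median −0.20; 30.3% of all genes passed), and in MetR_CE against MetR_RT 1 and 31 (median −0.15; 18%). In the first the higher ones were Mrpl15, described below, and Mrps31 (0.19 ± 0.07, adjusted p = 0.0276), and the lower ones were led by Mrpl38 (−0.51 ± 0.06, 2.29e-07), Mrps21, Mrpl28 (−0.43 ± 0.06, 1.63e-06) and Mrps24 (−0.48 ± 0.07, 1.81e-06). In the second Mrpl16 was higher (0.19 ± 0.06, 0.0387), and the lower ones were led by Mrpl14 (−0.43 ± 0.06, 1.06e-05), Mrpl52 (−0.38 ± 0.07, 0.000109), Mrpl35 (−0.33 ± 0.06, 0.000121) and Mrpl58 (−0.27 ± 0.05, 0.000166).

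Mrpl11, at the base of the stalk, ranged in liver from 26.6 to 33.8 CPM in Ctrl_RT (median 28.5), from 20.05 to 23.6 in Ctrl_CE (median 20.7), from 26.7 to 30.7 in MetR_RT (median 29) and from 20.9 to 26.3 in MetR_CE (median 23.2). All cold libraries lay below all libraries at 22 °C. Mrpl11 changed by −0.46 ± 0.06 on the log2 scale in Ctrl_CE (adjusted p = 6.9e-07) and by −0.33 ± 0.06 in MetR_CE (3.93e-05), with −0.03 ± 0.06 in MetR_RT (0.768).

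Mrps12 in liver ranged from 41.5 to 56.7 CPM in Ctrl_RT (median 46.6), from 28.4 to 36.6 in Ctrl_CE (median 33.4), from 37.3 to 43.9 in MetR_RT (median 42.3) and from 31.4 to 39.2 in MetR_CE (median 33.6). Both cold groups lay below Ctrl_RT, and MetR_RT overlapped it. The log2 change of Mrps12 was −0.52 ± 0.07 in Ctrl_CE (adjusted p = 1.93e-06), −0.22 ± 0.07 in MetR_RT (0.0258) and −0.47 ± 0.07 in MetR_CE (4.82e-06).

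Mrps21 in liver was lower in all 3 treated groups, with 32.2 to 40.02 CPM in Ctrl_RT (median 36.3), 23.2 to 29 in Ctrl_CE (median 26.7), 25.5 to 30.01 in MetR_RT (median 28.7) and 22.4 to 28 in MetR_CE (median 26.3). No treated library of Mrps21 reached the lowest Ctrl_RT library. Its log2 changes were −0.47 ± 0.06 (adjusted p = 2.29e-06), −0.36 ± 0.06 (0.000139) and −0.50 ± 0.06 (4.55e-07). Also lower in Ctrl_CE were Mrpl17 (−0.45 ± 0.06, 3.4e-06), Mrpl36 (−0.54 ± 0.08, 5.17e-06) and Mrps6 (−0.53 ± 0.09, 7.2e-05), and the pair Mrpl46 (−0.26 ± 0.09, 0.0229) and Mrps11 (−0.27 ± 0.08, 0.0133).

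Mrpl15, a large subunit protein with a bacterial homologue, was an exception in liver and rose with methionine restriction. It ranged from 44.6 to 53.3 CPM in Ctrl_RT (median 49.7), from 48.5 to 67 in Ctrl_CE (median 50.6), from 54.5 to 71.2 in MetR_RT (median 63.1) and from 63.9 to 77.9 in MetR_CE (median 69.7). Both MetR groups lay above Ctrl_RT, and Ctrl_CE overlapped it. The log2 change of Mrpl15 was 0.10 ± 0.07 in Ctrl_CE (adjusted p = 0.285), 0.36 ± 0.07 in MetR_RT (0.000349) and 0.49 ± 0.07 in MetR_CE (2.21e-06).

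Methionine restriction alone changed 17 of the 78 genes in liver, Mrpl15 among them, a share close to that of all genes. In MetR_RT against Ctrl_RT 9 passed as higher and 8 as lower, with a median of −0.03, among 18.8% of all genes. Higher were, among others, Mrps9 (0.36 ± 0.07 on the log2 scale, adjusted p = 0.000178), Mrps35 (0.22 ± 0.06, 0.0146) and Mrpl58 (0.17 ± 0.05, 0.0151), and lower Mrpl53 (−0.27 ± 0.07, 0.00651), Mrpl38 (−0.22 ± 0.06, 0.0113) and Mrpl4 (−0.23 ± 0.07, 0.0117). Cytosolic ribosomal protein genes passed as higher in 67 and as lower in 1 of 86 in the same comparison, and as higher in 0 and lower in 77 in Ctrl_CE (median −0.41). In MetR_CE against Ctrl_CE, 10 of the 78 passed as higher and 1 as lower (12.1% of all genes), led by Mrpl15 (0.39 ± 0.07, 0.000334), Mrpl24 (0.21 ± 0.05, 0.00509), Mrpl23 (0.34 ± 0.09, 0.00821) and Mrps16 (0.32 ± 0.08, 0.00895), with Mrpl38 lower (−0.23 ± 0.06, 0.0153). In the interaction 0 passed by edgeR, with 12 at an unadjusted p under 0.05 and 2 passing by DESeq2, among 1.76% of all genes.

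The liver changes ran with transcript length. Across 11566 genes at 1 CPM or more, the log2 fold change in Ctrl_CE against Ctrl_RT rose with the length of the longest transcript (Spearman's rho = 0.40 across genes, which are not independent replicates). Genes under 1000 bases had a median of −0.30, those from 1000 to under 2000 bases −0.16, those from 2000 to under 4000 bases −0.01 and those of 4000 or more 0.17. The mitochondrial ribosomal protein genes are short, with a median of 1327.5 bases, and had medians of −0.28 (24 genes), −0.24 (29), −0.20 (16) and −0.22 (9) in those bins, so the shortest were close to other genes of their length and the longer ones lower than theirs. When the length trend of each library was removed, an alternative chosen after the data had been seen, 4 of the 78 passed as higher and 27 as lower in Ctrl_CE, with a median of −0.08. The trend was also present in MetR_CE against MetR_RT (rho = 0.42) and against Ctrl_RT (rho = 0.35). In the former, the 78 genes had medians of −0.19, −0.15, −0.13 and −0.11 in those bins, and all genes −0.24, −0.16, −0.01 and 0.12. In the latter, the medians were −0.25, −0.17, −0.13 and −0.03, against −0.25, −0.15, −0.01 and 0.17. Those of the 78 under 2000 bases thus lay near other genes of their length in both. The 6 endothelial markers and 5 of 6 macrophage markers were higher in Ctrl_CE than in Ctrl_RT liver, with summed levels of 169 ± 26.5 against 74.7 ± 8.85 CPM and 373 ± 168 against 193 ± 24.1 CPM, and hepatocyte markers summed to 65168 ± 7821 against 72923 ± 10277 CPM; their part in the result was not tested.

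**Figure D4:**
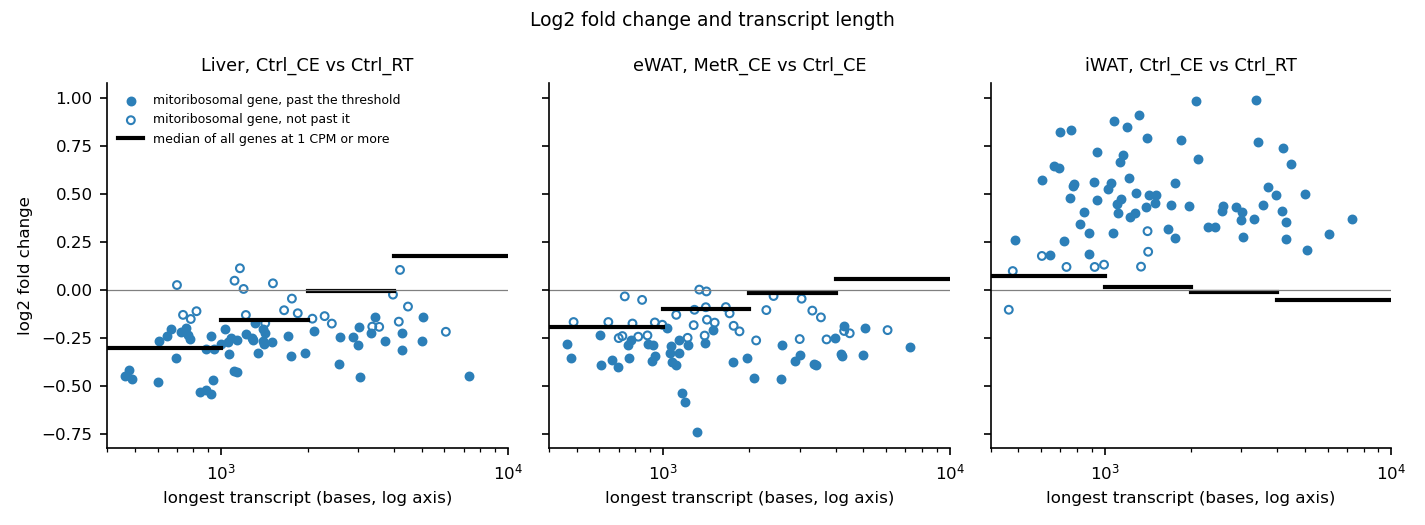
Log2 fold change (y axis) against the length of the longest transcript (x axis, bases, log axis) of the 78 genes (points, filled where the adjusted p is under 0.05), with the median of all genes at 1 CPM or more in 4 length bins (black bars), for liver and iWAT in Ctrl_CE against Ctrl_RT and eWAT in MetR_CE against Ctrl_CE. In liver the bars climb from −0.30 to 0.17 and the points of short genes lie around them; in iWAT nearly all points lie above the bars, and Mrpl52 (−0.10) lies below its bar.

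In eWAT few of the genes passed in the comparisons with Ctrl_RT. In Ctrl_CE against Ctrl_RT 4 of the 78 passed as higher and 0 as lower, with a median log2 fold change of 0.17, among 5.27% of all 27786 genes. They were Mrpl12 (0.64 ± 0.18, adjusted p = 0.035), Mrps22 (0.62 ± 0.18, 0.0444), Mrpl19 (0.39 ± 0.11, 0.0467) and Mrpl33 (0.28 ± 0.08, 0.0492). Leaving out any 1 of the 4 Ctrl_RT libraries left 0, with 1.74% to 4.11% of all genes passing. With the 4 omitted libraries returned 28 of the 78 passed, among 12.1% of all genes, whose median log2 fold change was then −0.21. In the main fit, 26 of the 78 were higher and 0 lower at an unadjusted p under 0.05, without a share of all genes to set beside them. In MetR_RT against Ctrl_RT 0 passed by edgeR and 0 by DESeq2, with 2 at an unadjusted p under 0.05, among 0.148% of all genes. In MetR_CE against Ctrl_RT Mrps16 alone passed (2.7% of all genes), and it did not pass without replicate 1 or without replicate 3 of Ctrl_RT. In MetR_CE against MetR_RT 0 of the 78 passed by edgeR and 1 by DESeq2, with 20 at an unadjusted p under 0.05, among 0.223% of all genes.

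In eWAT the 2 diets were also compared in the cold. In MetR_CE against Ctrl_CE 0 of the 78 passed as higher and 42 as lower, with a median log2 fold change of −0.25, while 5.09% of all genes passed as lower and 11.5% in either direction. With the 4 omitted eWAT libraries returned 9 of the 78 passed, among 4.55% of all genes in either direction. The count was 30 of 51 for the large and 12 of 26 for the small subunit, and 38 of 40 nuclear respiratory chain subunits passed as lower with them (median −0.41). Across all genes the fold change followed transcript length less closely than in liver (Spearman's rho = 0.22 across genes); genes under 1000 bases had a median of −0.19 and those of 4000 or more 0.06, and with the length trend removed 25 of the 78 passed as lower and 0 as higher, with a median of −0.17. The 5 brown adipocyte markers measured summed to 20.1 ± 8.79 CPM in Ctrl_CE and 7.74 ± 3.82 in MetR_CE, with 4 lower.

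Mrpl12 in eWAT measured 73.3, 72.4, 58.0 and 67.1 CPM in the 4 Ctrl_RT libraries, and ranged from 86 to 135 in Ctrl_CE (median 93.6), from 44.9 to 106 in MetR_RT (median 80.8) and from 49.4 to 73.04 in MetR_CE (median 64.6). All Ctrl_CE libraries lay above Ctrl_RT and MetR_CE, and MetR_RT overlapped each of the other 3 groups. The log2 difference of Mrpl12 between MetR_CE and Ctrl_CE was −0.74 ± 0.15 (adjusted p = 0.00208).

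Mrps16 in eWAT measured 29.1, 25.6, 22.8 and 24.2 CPM in Ctrl_RT, and ranged from 21.9 to 32.3 in Ctrl_CE (median 26.7), from 19.7 to 25.3 in MetR_RT (median 22.3) and from 17.5 to 21.7 in MetR_CE (median 19.2). MetR_CE lay below both Ctrl groups, which overlapped each other. The log2 difference of Mrps16 was −0.46 ± 0.08 against Ctrl_CE (adjusted p = 0.000655) and −0.39 ± 0.09 against Ctrl_RT (0.0202).

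Mrpl30 in eWAT measured 60.4, 49.8, 54.3 and 53.5 CPM in Ctrl_RT, and ranged from 58.1 to 75.4 in Ctrl_CE (median 60.8), from 50.2 to 70.3 in MetR_RT (median 58.4) and from 46.4 to 52.8 in MetR_CE (median 49.6). All MetR_CE libraries lay below all Ctrl_CE libraries. The log2 difference of Mrpl30 between them was −0.38 ± 0.07 (adjusted p = 0.00153), and that of Mrpl33 was −0.36 ± 0.07 (0.00194). The interaction passed for 4 genes and was below zero for all of them, Mrpl30 (−0.49 ± 0.11, adjusted p = 0.0187), Mrpl12 (−0.94 ± 0.23, 0.0263), Mrpl33 (−0.43 ± 0.11, 0.032) and Mrpl42 (−0.57 ± 0.15, 0.035), among 3.07% of all genes. Without replicate 1, 6 or 7 of Ctrl_RT 1 gene passed in the interaction. With the 4 omitted eWAT libraries returned, 0 passed in the interaction, among 0.00636% of all genes. At an unadjusted p under 0.05 in the main fit, the eWAT interaction was below zero for 49 of the 78 genes and above it for 0. No share of all genes was computed at that level.

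Levels between tissues were compared in Ctrl_RT mice, with each pair of tissues fitted and normalized together. In iBAT against iWAT 75 of the 78 genes were higher and 1 lower, with a median log2 fold of 0.94 and 64 DEGs, while 24.4% of all genes passed as higher, 16.5% as DEGs with higher levels, and 28% as lower. Mrps36 stood highest (2.73 ± 0.16, adjusted p = 3.44e-20), followed by Mrpl34 (2.09 ± 0.13, 7.47e-20) and Mrps2 (1.83 ± 0.13, 2.47e-17). Mrps6 was lower in iBAT (−0.34 ± 0.11, 0.00544), Mrpl27 and Mrps26 were higher by only 0.29 ± 0.06 each, and Mrpl33 and Mrpl52 did not pass. In CPM normalized within each tissue, Mrps36 ranged from 39.2 to 43.4 in iBAT (median 40.5) and from 5.18 to 9.38 in iWAT (median 8.64), and Mrps6 from 18.7 to 26.7 and from 31.5 to 43.1.

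**Figure D5:**
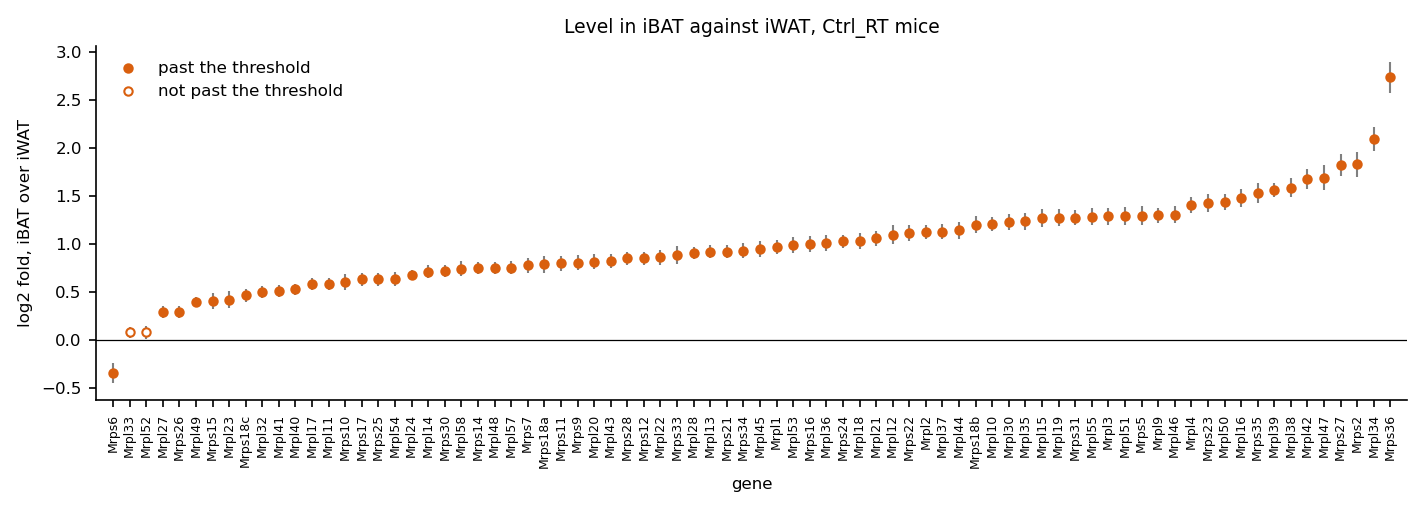
Log2 fold of the level in iBAT over iWAT in Ctrl_RT mice (y axis) for each of the 78 genes (x axis, in increasing order), with its SE (bars); filled points passed at an adjusted p under 0.05. Only Mrps6 lies below 0, Mrpl33 and Mrpl52 are open points near 0, and Mrps36 is highest at 2.73.

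In iBAT against liver 47 genes were higher and 9 lower, with a median of 0.28 (64.2% of all genes passed); Mrps36 (3.0 ± 0.1), Mrps23 (1.48 ± 0.06) and Mrpl3 (1.46 ± 0.06) were highest and Mrpl52 (−1.56 ± 0.07), Mrpl14 (−0.90 ± 0.07) and Mrps12 (−0.61 ± 0.07) lowest. In iWAT against eWAT 8 were higher and 1 lower, with a median of 0.10 (23% of all genes passed); Mrpl33 (0.49 ± 0.07), Mrpl12 (0.49 ± 0.16) and Mrpl34 (0.47 ± 0.16) were highest, and Mrpl49 (−0.34 ± 0.08) was the 1 that was lower, while Mrpl52 (0.21 ± 0.08) and Mrps17 (0.28 ± 0.08) had the smallest of the positive differences that passed. With the mouse as a block, 4 genes passed in this comparison.

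The responses of the tissues were then compared directly, as the difference of 2 log2 fold changes in a joint fit. The change with cold was larger in iWAT than in iBAT for 42 of the 78 genes and smaller for 0 (17% of all genes passed), with Mrpl50 (0.85 ± 0.12), Mrpl49, Mrpl40 and Mrpl2 at the smallest adjusted p. In the same contrast 40 of 40 nuclear respiratory chain genes (median 0.76), 4 of 6 brown adipocyte markers (1.65) and 5 of 6 hepatocyte markers (5.73) were also larger in iWAT, and 2 of 6 macrophage markers were smaller. The hepatocyte markers summed to 26.5 ± 7.5 CPM in Ctrl_RT and 54.3 ± 15.04 in Ctrl_CE of iWAT, and in iBAT to 50.7 CPM in replicate 5 of Ctrl_RT and at most 4.22 CPM in the other Ctrl_RT and Ctrl_CE libraries. The part of these markers in the result was not tested. The change with methionine restriction at 22 °C was larger in iWAT than in iBAT for 66 genes and smaller for 0 (8.3% of all genes passed), with Mrps36 at 1.12 ± 0.22 and Mrpl34 at 0.80 ± 0.17. Also larger in iWAT were 40 of 40 nuclear respiratory chain genes (median 0.77), 5 of 6 brown adipocyte markers (2.35) and 3 of 6 hepatocyte markers (4.30). Of 6 macrophage markers 1 was smaller, and the part of these markers was again not tested. The change with cold was larger in iWAT than in eWAT for 12 genes (3 with RLE factors) and smaller for 0 (5.05% of all genes passed), including Mrps23 (0.56 ± 0.15), Mrps27 (0.62 ± 0.19) and Mrps36 (0.82 ± 0.26).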

How the data were processed

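Poly(A) RNA was sequenced by the study as paired reads, and the authors deposited 3 tables of unnormalized, whole-number counts for genes on mm10. The submitters' processing notes list STAR 2.7.9a, featureCounts 2.0.3, Salmon 1.9.0, MultiQC 1.19 and DESeq2 1.46.0. The deposited tables are named as Salmon counts but hold whole numbers, and the methods name featureCounts as well, so which tool made them was not settled. The methods name GENCODE vM25. The symbol table was of an earlier release: 35 of 56884 gene ID versions matched it, and 51948 genes received a symbol by their unversioned ID. Titles gave the groups, also for 3 iBAT libraries with another treatment tag. The study's omissions were followed (1 iBAT Ctrl_CE, 3 eWAT Ctrl_RT and 1 eWAT MetR_RT library), which left 105 of 110 libraries.

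Genes with under 10 counts in a tissue were left out, and edgeR 4.0.16 (R 4.3.3) was used with TMM factors and its quasi-likelihood test on all 4 groups of a tissue. Pairs of tissues were fitted jointly. Standard errors were the log2 fold change over the root of F. DESeq2 1.42.0, limma 3.58.1, other factors, filters, samples and blocks served as alternatives. The procedure was tested on simulated counts. p-values measure the spread between mice, and levels of one tissue are not normalized to those of another.

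The genes and the comparison lists were chosen with earlier results of these data known. Named were, per comparison, the 4 genes with the smallest adjusted p in each direction (between tissues the 3 highest and 3 lowest that passed), 10 genes of special role (Mrpl12, Mrps12, Mrpl58, Mrps18a, Mrps18b, Mrps18c, Mrps30, Mrps36, Mrpl36, Mrps6), and for other lists the 2 with the smallest adjusted p. Others were named after their values were seen. Same-numbered mice within a tissue are different animals and were not treated as pairs; across tissues, the labels tie libraries to the same mouse.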

Additional observations from a re-analysis of the deposited data

Results flagged for a closer look

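Of 84 groups of library values examined, 4 held a library far from the others, and chance gives about 1 in 20. Replicate 5 of iWAT Ctrl_RT held 47.8 CPM of Mrpl20 (the others 33.8 to 38.6) and 108 CPM of Mrpl12 (the others 74.9 to 86.8). For Mrpl47 in iBAT, replicate 2 of Ctrl_CE held 55.3 CPM (the others 61.6 to 65) and replicate 3 of MetR_RT held 46.4 CPM (the others 38.2 to 41.2).

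The change with cold differed between the diets (interaction, edgeR) for 2 genes in iBAT, 22 in iWAT and 4 in eWAT, among 0.903%, 2.95% and 3.07% of all genes. Under the alternatives these counts ranged from 0 to 8 in iBAT, 8 to 54 in iWAT and 0 to 19 in eWAT. In iBAT the 2 genes were Mrpl20 (−0.34 on the log2 scale) and Mrps27 (−0.31). In iWAT the smallest adjusted p belonged to Mrps22 (−0.70), Mrps28 (−0.57), Mrpl27 (−0.44) and Mrpl12 (−0.84). In eWAT the 4 were Mrpl30 (−0.49), Mrpl12 (−0.94), Mrpl33 (−0.43) and Mrpl42 (−0.57).

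The change with cold differed between iWAT and eWAT for 12 genes (3 with RLE factors), while 5.05% of all genes passed. Among the 12 were Mrpl4 (0.50), Mrpl27 (0.37), Mrps23 (0.56) and Mrpl2 (0.38), each larger in iWAT. It differed between iWAT and iBAT for 42 genes (17% of all genes passed), with Mrpl50 (0.85), Mrpl49 (0.39), Mrpl40 (0.43) and Mrpl2 (0.53) at the smallest adjusted p. The change with methionine restriction at 22 °C differed between iWAT and iBAT for 66 genes (8.3% of all genes passed), with Mrpl2 (0.63), Mrps28 (0.54), Mrps34 (0.59) and Mrpl30 (0.63) at the smallest adjusted p.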

How the results depend on the processing

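Under the alternatives, 190 counts of passing genes lay within 1.5 times the reported count, and those that did not are given here. For iWAT the counts against Ctrl_RT ranged from 64 to 71 in Ctrl_CE and in MetR_RT and from 60 to 70 in MetR_CE. For named genes 3364 values were compared, of which 3168 stayed on their side of the threshold, 157 no longer passed, 37 newly passed and 2 changed sign: Mrpl12 in liver Ctrl_CE with the length trend removed (0.022) and Mrps18c in iBAT against liver with upper-quartile factors (0.00018). Upper-quartile factors moved the median of all genes by 0.15 in iBAT against iWAT and 0.18 in iBAT against liver. With DESeq2, the counts were 2 for the liver interaction, 17 for iBAT MetR_CE against Ctrl_CE and 8 for the iBAT interaction, 3 for iWAT MetR_CE against MetR_RT and 54 for the iWAT interaction, and in eWAT 15 for Ctrl_CE and 2 for MetR_CE against Ctrl_RT, 1 for MetR_CE against MetR_RT and 19 for the interaction. With RLE factors they were 1 for the liver and 4 for the iBAT interaction, and 3 for the difference between iWAT and eWAT in Ctrl_CE. With filterByExpr they were 2, 6, 45 and 8 for the liver, iBAT, iWAT and eWAT interactions, 14 for iBAT MetR_CE against Ctrl_CE and 3 for iWAT MetR_CE against MetR_RT. Without a filter they were 7 for liver MetR_CE against Ctrl_CE, 4 for iBAT MetR_RT and 1 for eWAT Ctrl_CE. With only the 2 groups compared they were 5 for iBAT MetR_RT, 5 for iBAT MetR_CE against Ctrl_CE and 1 for eWAT Ctrl_CE. With all libraries they were 4 for iBAT MetR_CE against Ctrl_CE and 1 for the iBAT interaction, and in eWAT 28 for Ctrl_CE, 0 for MetR_CE against Ctrl_RT, 9 for MetR_CE against Ctrl_CE and 0 for the interaction. With groups from the tags they were 2 for iBAT MetR_RT, 12 for MetR_CE against MetR_RT, 0 for MetR_CE against Ctrl_CE and 0 for the interaction, and without those 3 libraries 4 and 1 for the last 2.

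Leaving out each eWAT Ctrl_RT library in turn gave 0 to 0 for Ctrl_CE, 0 to 1 for MetR_CE against Ctrl_RT, 35 to 43 for MetR_CE against Ctrl_CE and 1 to 3 for the interaction. With the replicate number as a block, although the numbers mark different mice (the median correlation of same-numbered deviations lay between −0.01 and 0.11), the counts were 4 for iBAT MetR_RT and 1 for the iBAT interaction, and in eWAT 9 for Ctrl_CE, 1 for MetR_RT, 0 for MetR_CE against Ctrl_RT and 13 for the interaction. With the mouse as a block, which pairs tissues of 1 animal, 4 genes passed in iWAT against eWAT, and the other tissue comparisons stayed within 1.5 times. Of the alternatives chosen after the data had been seen, removing the length trend gave 31 for liver Ctrl_CE, 18 for liver MetR_CE against MetR_RT, 1 for the liver and 4 for the iBAT interaction, 3 for iWAT MetR_CE against MetR_RT and 25 for eWAT MetR_CE against Ctrl_CE. Without the muscle-rich libraries the counts were 0 for iWAT MetR_CE against MetR_RT and 8 for the iWAT interaction, and without the 2 libraries with epididymal markers 1 for eWAT Ctrl_CE. Without the liver library under 10000000 counts all liver counts stayed within 1.5 times. The share of all genes that passed moved with the settings as well, for example from 2.95% to 13.1% by DESeq2 in the iWAT interaction. The cause of these shifts was not tested. The few Ctrl_RT libraries limit eWAT.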
